A study of Mus musculus with 24 samples.

Results

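The 38 genes described here are type I interferon-stimulated genes, found by their symbols among the 35976 genes of the deposited tables, and all 38 were present. They were followed in CT26, a colon carcinoma line of the mouse that grows as tumors in BALB/c animals, with and without Sun1, which encodes an inner nuclear membrane protein of the LINC complex. Sun1 knockout tumors (7 libraries) and tumors of control line 1, labelled wild type (8 libraries), were whole subcutaneous tumors taken 14 days after injection. Tumor cells purified from tumors of the same age with a tumor cell isolation kit gave 2 knockout libraries, 2 of control line 1 and 2 of control line 2, which is also labelled wild type. Cells in culture gave 1 library of each of these 3 lines. No group received a drug, and age and sex of the mice are not given in the sources used here. The labels name a single knockout line, so the loss of Sun1 cannot be told apart from other features of this line. Nothing says whether replicates came from separate mice or pools, so the p-values describe spread between the sequenced samples alone, and this may be technical.

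Type I interferons, the interferon alpha proteins and interferon beta, bind a receptor made of Ifnar1 and Ifnar2 and act through the kinases Jak1 and Tyk2. Stat2 and Irf9 are subunits of the complex ISGF3, which then binds interferon-stimulated response elements near the target genes and turns them on. Tumor cells, leukocytes and stromal cells can all respond, and in colon carcinoma models this programme is known for its links to antigen presentation and to the sensing of nucleic acids.

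The response element is shown here in members that the results turn on, as the letters GAAANNGAAA, where N is any base, read on both strands. Each sequence holds the 250 bases before a start in the RefSeq promoter table on GRCm38.p6 (the mm10 assembly), written 5′ to 3′ on the gene's strand, with matches in capitals. Isg15 (minus strand, chr4:156200819-156201068) is shown for its 3 overlapping matches, the most of any member with a window.
Isg15: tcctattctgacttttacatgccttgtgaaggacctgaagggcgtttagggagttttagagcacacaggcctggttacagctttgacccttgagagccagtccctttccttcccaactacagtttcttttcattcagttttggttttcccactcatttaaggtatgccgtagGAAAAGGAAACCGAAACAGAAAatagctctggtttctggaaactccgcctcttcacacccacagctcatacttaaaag
Ifit1 (plus strand, chr19:34640639-34640888) and Bst2 (minus strand, chr8:71537473-71537722) hold 2 matches each, overlapping in Bst2 only, and stand for the family with the highest median knockout effect in purified cells and for the most abundant member.
Ifit1: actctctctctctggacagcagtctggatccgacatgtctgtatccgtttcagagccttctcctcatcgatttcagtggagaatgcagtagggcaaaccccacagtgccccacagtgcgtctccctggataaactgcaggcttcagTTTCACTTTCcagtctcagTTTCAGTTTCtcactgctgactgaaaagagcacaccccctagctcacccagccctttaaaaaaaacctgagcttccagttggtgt
Bst2: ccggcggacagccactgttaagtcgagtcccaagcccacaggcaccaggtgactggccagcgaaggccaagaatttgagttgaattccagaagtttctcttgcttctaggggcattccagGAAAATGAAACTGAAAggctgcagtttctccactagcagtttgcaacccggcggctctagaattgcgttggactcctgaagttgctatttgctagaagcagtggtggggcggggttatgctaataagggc
Ifit3 (plus strand, chr19:34583279-34583528) and Ifit3b (plus strand, chr19:34607707-34607956) are shown because they are near-identical copies whose matches stand in the same surroundings. Their starts in the table lie downstream of the outermost annotated gene starts (34583119 for Ifit3 and 34607530 for Ifit3b), so these stretches fall inside the annotated genes.
Ifit3: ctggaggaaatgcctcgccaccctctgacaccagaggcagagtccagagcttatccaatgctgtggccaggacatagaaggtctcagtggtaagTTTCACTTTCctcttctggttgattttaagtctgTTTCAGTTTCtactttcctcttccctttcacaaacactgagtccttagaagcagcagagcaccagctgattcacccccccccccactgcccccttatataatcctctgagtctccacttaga
Ifit3b: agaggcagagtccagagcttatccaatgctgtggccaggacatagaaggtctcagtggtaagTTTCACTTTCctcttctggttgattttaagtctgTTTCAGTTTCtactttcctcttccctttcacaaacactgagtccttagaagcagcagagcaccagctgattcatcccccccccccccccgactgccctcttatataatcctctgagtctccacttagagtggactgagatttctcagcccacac
Ifi44l (minus strand, chr3:151762892-151763141) had the largest difference of any member in tumors and holds no match in these letters.
Ifi44l: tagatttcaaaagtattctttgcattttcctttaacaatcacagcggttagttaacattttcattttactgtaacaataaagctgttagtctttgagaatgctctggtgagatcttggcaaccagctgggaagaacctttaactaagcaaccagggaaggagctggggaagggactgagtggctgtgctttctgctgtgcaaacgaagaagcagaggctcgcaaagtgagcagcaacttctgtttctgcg

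RefSeq promoter windows, from 250 bases before to 50 after a start, were found for 30 of the 38 members. The letters GAAANNGAAA stood in 12 of these 30 (40.0%), against 3.99% of all 27025 genes with windows. Besides the members shown, Ddx60 and Oas1a held 2 matches and Eif2ak2, Oas3, Rsad2, Slfn5 and Trim30a held 1. The Stat dimer letters TTCNNNGAA, which read the same on both strands, stood in 7 of 30 (23.3%), against 9.55% of all genes. A match is a run of letters in this window and was not tested as a binding site.

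Reads of near-identical copies cannot be assigned with certainty. The transcripts of Ifit3 and Ifit3b are 98.0% identical over 1697 aligned bases, so the authors' counting could split reads between them, and the 2 values are read together. Ifit2, Ifit3, Ifit3b and Ifit1 lie side by side (chr19:34550550-34650009). Parp9 (chr16:35938470-35972621) and Dtx3l (chr16:35926515-35939027) overlap at their starts, and whether counting used strand is not given in the sources used here. RefSeq annotates Mx1 and Mx2 as transcribed pseudogenes in this assembly.

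Totals were 14140769 to 24651279 expected counts in tumors, 17068356 to 22593612 in purified cells and 18832201 to 20716917 in culture. Sun1 (chr5:139200564-139249839) averaged 57.5 CPM (counts scaled to library size) in knockout tumors and 179 CPM in control tumors. In purified cells Sun1 had 53.2 CPM in the knockout, 194 CPM in control line 1 and 166 CPM in control line 2, and in culture 33.7 CPM in the knockout, 122 CPM in control line 1 and 110 CPM in control line 2. Of markers of the epithelial origin of CT26, Krt18 averaged 0.445 CPM in purified knockout cells, against 31.2 CPM in control line 1 and 54.9 CPM in control line 2. Krt8 was near the floor and was not lower than in control line 2. It had 3 and 8 counts in purified knockout cells, 31 and 33 in control line 1, and 2 and 5 in control line 2. The epithelial marker Epcam was at 0 in purified cells of all 3 lines.

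Levels of the members differed widely, and every member had counts in every library. On the deposited TPM scale (transcript share, which corrects for length), Bst2, the membrane tether tetherin that holds virions at the cell surface, was the highest member in all 8 groups. Its level averaged 2155 TPM in knockout tumors and 1653 TPM in control tumors, and 3952 TPM in purified knockout cells. Isg15, a ubiquitin-like protein that is joined to other proteins, was next in knockout tumors, at 351 TPM, against 254 TPM in control tumors. Slfn5 was the lowest member in cultured knockout cells, at 0.09 TPM, and Mx1 and Ifi44l stood just above it, at 0.53 and 1.07 TPM.

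**Figure D1:**
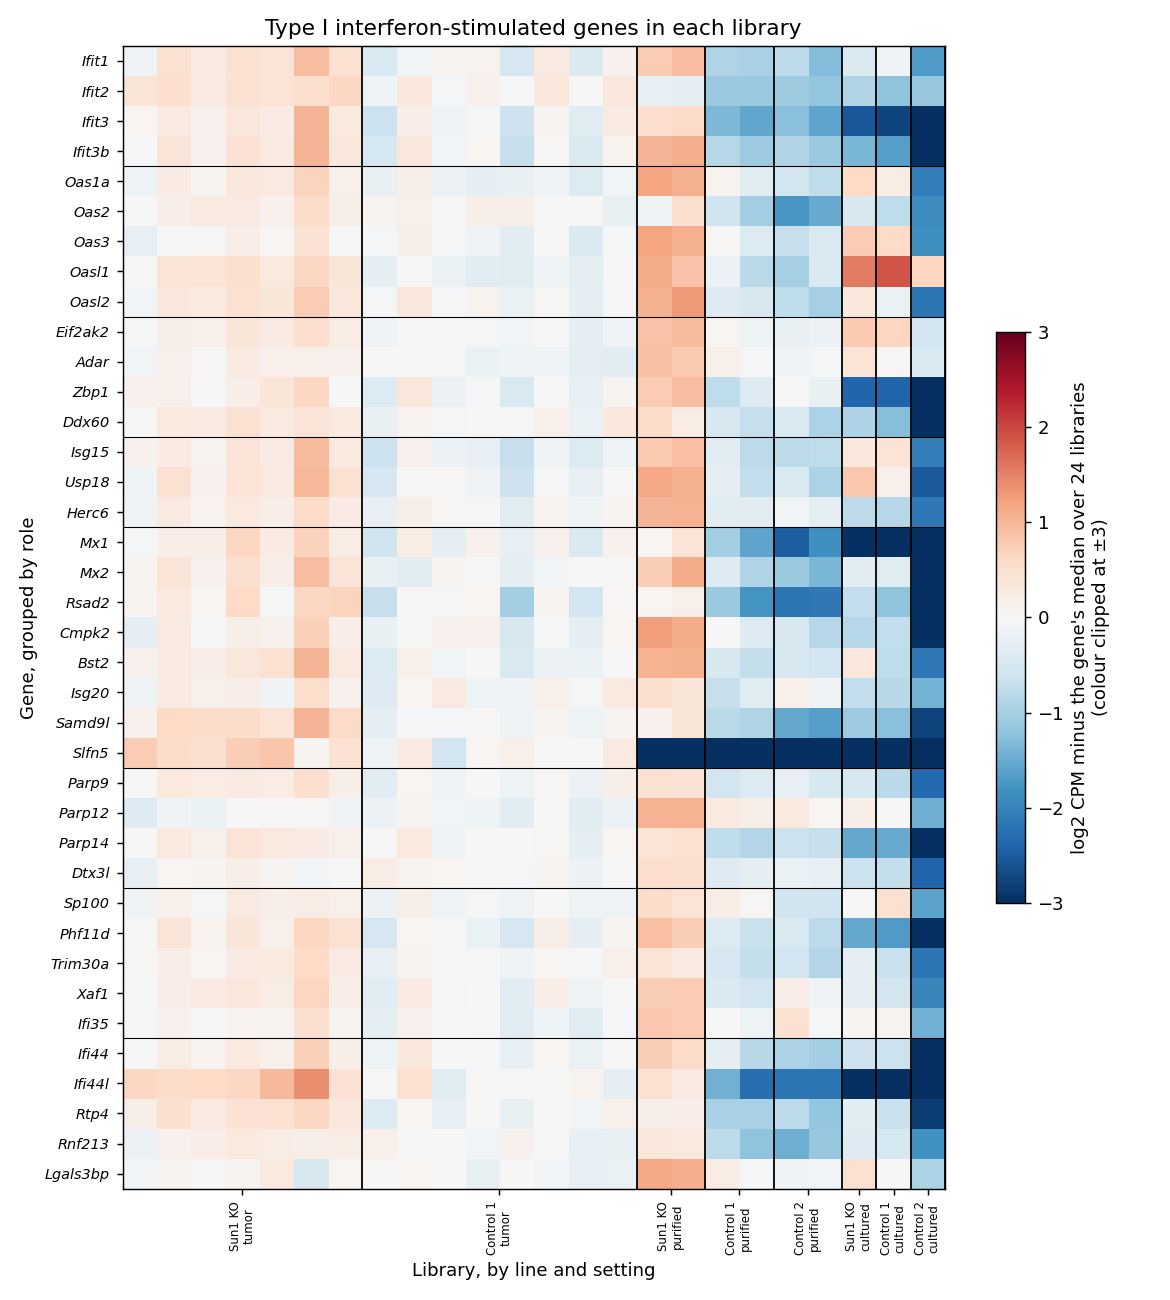
Each cell is 1 library and 1 of the 38 members, coloured by log2 CPM minus that gene's median over the 24 libraries, with rows grouped by role and columns by line and setting. By value, purified knockout cells are above the purified control cells in every row. Cultured control line 2 is below cultured control line 1 in every row but Ifit2. The colour scale is clipped at both ends, so the order of values past its ends, such as Slfn5 outside tumors, cannot be seen. Slfn5 is low in all 9 cell libraries.

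The ligands were near the limit of detection. Among 18 type I interferon genes, Ifnb1, which encodes interferon beta, had 65 counts over the 7 knockout tumors (5 to 20 a library), against 27 over the 8 control tumors (0 to 11). Purified knockout cells had 17 Ifnb1 counts (7 and 10), against 0 in both libraries of control line 1 and 6 (5 and 1) in control line 2. Cultured cells had 5 counts in the knockout, 2 in control line 1 and 0 in control line 2. The 18 genes together had 78 counts over knockout tumors and 34 over control tumors, and 23, 0 and 8 counts over the purified knockout, control line 1 and control line 2. These counts fell under the filter on low values, so no test was made within tumors or purified cells.

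Receptor and signalling genes did not move as a block. Of 11 such genes, 4 were higher and 3 lower in knockout than in control tumors, with 37.1% of 13752 genes called in either direction. Irf7, a transcription factor that drives interferon alpha genes and is itself induced by interferon, was the gene of this group with the smallest p. Its CPM was 239 to 342 (median 263) in knockout tumors and 147 to 236 (median 180) in control tumors, so the groups met at their edges without overlapping. The log2 fold change was 0.67 ± 0.10 (SE, edgeR quasi-likelihood test, adjusted p = 3.75e-05). Stat2, a subunit of ISGF3, had 183 to 298 CPM in knockout tumors and 138 to 194 CPM in control tumors (0.51 ± 0.09, adjusted p = 0.000191). Socs1, an inhibitor of Jak kinases, also rose (0.58 ± 0.11, adjusted p = 0.000503). Ifnar1, a receptor chain, fell by 0.21 ± 0.07 on the log2 scale (adjusted p = 0.0185).

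In purified cells the same signalling list had 4 higher and 1 lower gene in the knockout against control line 1, and 3 higher and 0 lower against control line 2, beside 8.32% and 11% of all genes called higher. Irf7 had 647 and 641 CPM in purified knockout cells, against 205 and 145 CPM in control line 1 and 159 and 144 CPM in control line 2. Stat2 had 422 and 454 CPM in purified knockout cells, against 131 and 137 CPM in control line 1 and 150 and 133 CPM in control line 2. Both genes rose against each control line, with log2 fold changes of 1.89 ± 0.15 and 2.09 ± 0.15 for Irf7 and 1.72 ± 0.11 and 1.63 ± 0.11 for Stat2. Irf9, the DNA-binding subunit of ISGF3, had a log2 fold change of 0.29 ± 0.10 against control line 1 (adjusted p = 0.0684) and 0.32 ± 0.10 against control line 2 (adjusted p = 0.0406).

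Purified knockout tumor cells carried more of almost every member than purified cells of control line 1. Of 38 members tested, 37 were higher and 0 lower, with 8.32% of 12476 genes called higher. The median log2 fold change over the members was 1.26 (all genes 0.00), their SD was 0.38, and 27 members were past 2-fold. Values ran between 0.35 for Sp100, a nuclear body protein, and 2.17 for Ifi44l, an interferon-induced protein of the Ifi44 family. The calls of Sp100 and Oas2 were each lost in 4 of 6 fits with 1 library left out, where 1 group holds a single library. Against control line 2, 36 members were higher and 0 lower, with 11% of genes called higher, and the median was 1.51 (SD 0.54, all genes -0.01). In all 38 members both knockout libraries lay above all 4 control libraries, which was so for 16.5% of the genes tested. Both comparisons share the knockout libraries and are 1 line against 2 others.

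The IFIT family, tetratricopeptide proteins that act against viral RNA, had the highest median of the 8 roles in which the members were grouped, 1.90. Ifit3 had 153 and 162 CPM in purified knockout cells, against 42.6 and 36.6 CPM in control line 1 and 45.6 and 36.3 CPM in control line 2. Its copy Ifit3b had 80.3 and 84.9 CPM in the knockout, against 21.8 and 18.7 CPM in control line 1 and 21.1 and 18.3 CPM in control line 2. All knockout values of these copies were thus well clear of the controls, by 4.0-fold for Ifit3 and 4.12-fold for Ifit3b against control line 1 (adjusted p = 8.25e-07 and 6.73e-07). Ifit1, which binds RNA lacking a mature cap, rose 3.49-fold (1.80 ± 0.15, adjusted p = 1.51e-05). Ifit2, the neighbour of Ifit3, rose less, 1.82-fold (0.87 ± 0.11, adjusted p = 0.000193).

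The OAS family makes oligoadenylates that activate RNase L, and all 5 members rose against both control lines. Oasl2 had 574 and 656 CPM in purified knockout cells, against 207 and 194 CPM in control line 1 and 160 and 137 CPM in control line 2 (1.63 ± 0.12 against line 1, adjusted p = 1.69e-06). Oasl1, which in mice lacks the synthetase activity and restrains translation of Irf7, had 126 and 105 CPM in the knockout, against 51.2 and 33.3 CPM in control line 1 and 29.2 and 42.3 CPM in control line 2. The libraries of Oasl1 varied more, and its change was 1.47 ± 0.25 (adjusted p = 0.0102). Oas1a and Oas3 rose by 1.25 ± 0.15 and 1.30 ± 0.14, and Oas2 by 1.03 ± 0.24 (adjusted p = 0.0302). With both control lines as 1 arm, Oas2 did not pass in the same test (1.38 ± 0.32, adjusted p = 0.0601).

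Members that bind or edit double-stranded nucleic acid all rose, with a lower median of 0.97. Eif2ak2, the kinase PKR that stops translation, had 175 and 187 CPM in purified knockout cells, against 101 and 88.3 CPM in control line 1 and 83.7 and 86.0 CPM in control line 2 (0.95 ± 0.10, adjusted p = 5.89e-05). Adar, which edits adenosine to inosine, rose by 0.78 ± 0.11 and the helicase Ddx60 by 0.99 ± 0.18. Zbp1, a sensor of Z-form nucleic acid that can start necroptosis, stood out in this group with 284 and 319 CPM in the knockout. Control line 1 had 98.4 and 128 CPM of Zbp1, and control line 2 had 169 and 144 CPM. Zbp1 was also higher in control line 2 than in control line 1 (0.48 ± 0.13, adjusted p = 0.0299).

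The ISG15 system rose in all 3 members. Isg15 had 187 and 204 CPM in purified knockout cells, against 85.7 and 62.8 CPM in control line 1 and 63.3 and 64.4 CPM in control line 2 (1.41 ± 0.13, adjusted p = 2.84e-05). Usp18, which removes Isg15 from proteins and restrains the interferon receptor, rose 3.04-fold, and Herc6, the mouse ligase for Isg15, rose 2.57-fold. Among direct antiviral effectors, Bst2 had 1365 and 1396 CPM in the knockout, against 478 and 403 CPM in control line 1 and 476 and 448 CPM in control line 2 (1.66 ± 0.11, adjusted p = 1.34e-06). Mx1, Mx2, the radical SAM enzyme Rsad2 (viperin) and its neighbour Cmpk2, a nucleotide kinase, rose by 1.37 to 1.58 on the log2 scale. Mx1 and Mx2 are of the dynamin-like GTPase family, but RefSeq annotates both as transcribed pseudogenes in this assembly. Samd9l, a restrictor of virus and cell growth, rose by 1.11 ± 0.11 against control line 1 and by 1.84 ± 0.11 against control line 2. The exonuclease Isg20 passed against control line 1 (0.95 ± 0.14) and not against control line 2 (0.40 ± 0.14, adjusted p = 0.0549). Slfn5 had 1.70 and 1.69 CPM in the knockout and 0.545 to 0.900 CPM in the 4 control libraries, and did not pass (1.23 ± 0.54, adjusted p = 0.136).

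The ADP-ribosyltransferase genes and Dtx3l rose in all 4 cases. Parp9 and its ligase partner Dtx3l rose by 0.93 ± 0.11 and 0.83 ± 0.10 against control line 1, Parp12 by 0.81 ± 0.11, and Parp14 by 1.27 ± 0.10. Of nuclear and regulatory members, Phf11d, a PHD finger protein, had 151 and 134 CPM in purified knockout cells, against 61.1 and 50.7 CPM in control line 1 and 58.8 and 46.8 CPM in control line 2. Xaf1, a partner of the apoptosis inhibitor XIAP, rose by 1.24 ± 0.13, Trim30a, a mouse TRIM protein, by 0.97 ± 0.13, and Ifi35 by 0.86 ± 0.15. Sp100 had 157 and 172 CPM in the knockout, against 122 and 139 CPM in control line 1 and 77.7 and 78.0 CPM in control line 2, so its difference was larger against control line 2. Among the remaining members, Ifi44l had 37.9 and 33.4 CPM in the knockout, against 10.2 and 5.77 CPM in control line 1 and 6.16 and 6.05 CPM in control line 2. Ifi44 rose by 1.19 ± 0.17, Rtp4, a chaperone of receptors, by 1.18 ± 0.13, Rnf213, a large ubiquitin ligase, by 1.29 ± 0.15, and Lgals3bp, a secreted glycoprotein, by 1.04 ± 0.11.

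Lines that carry Sun1 also differed. Control line 2 against control line 1 had 3 higher members (Zbp1, Isg20 and Xaf1) and 6 lower members (Oas1a, Oasl2, Mx1, Rsad2, Samd9l and Sp100) in purified cells, with 15.7% of genes called in either direction. No difference was past 2-fold, the median was -0.13, and the lowest was -0.82 for Mx1. The count of lower members was 2 without replicate 1 of control line 1 and 10 without its replicate 2. It was 3 without replicate 2 of control line 2, and no member was called higher without replicate 1 of either control line.

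Leukocyte and endothelial markers were low in the purified libraries, and fibroblast markers were not. The summed level of 5 leukocyte markers (Ptprc, Laptm5, Cd53, Coro1a and Cd52) was 1.61 to 2.76 CPM in purified knockout cells, 5.94 to 7.57 CPM in control line 1 and 2.91 to 7.0 CPM in control line 2. Endothelial sums over 3 markers were at most 1.42 CPM. Of 4 plasmacytoid dendritic cell markers, Siglech and Ccr9 were at 0 in purified knockout cells, and Bst2 is itself a member. The fourth, Cox6a2, had 3.81 and 2.32 CPM in purified knockout cells, against 0.545 and 0.265 CPM in control line 1 and 1.84 and 1.57 CPM in control line 2. Cox6a2 was called higher against control line 1 (2.93 ± 0.55, adjusted p = 0.00284) and not against control line 2 (0.85 ± 0.46, adjusted p = 0.207). Cultured cells also held Cox6a2, with 49 counts in the knockout, 15 in control line 1 and 18 in control line 2. The sum of 3 fibroblast markers (Dpt, Pdgfra and Lum) was 58.5 to 96.2 CPM over all tumors, 53.7 to 65.9 CPM in purified knockout cells, 125 to 162 CPM in control line 1 and 40.3 to 46.0 CPM in control line 2. Single fibroblast markers went in opposite directions. Against control line 1, 1 was called higher and 2 lower, with log2 fold changes of -4.70 to 3.35. Against control line 2, 1 was called higher and 0 lower. Dpt had 277 and 404 counts in purified knockout cells, against 27 and 29 in control line 1. Lum had 29 and 52 counts, against 668 and 1138. In culture, where the lines grew alone, the fibroblast sum was 9.50 to 13.2 CPM. Most of it was Pdgfra, with 248 counts in the knockout, 236 in control line 1 and 182 in control line 2. In the same order, cultured Dpt had 14, 1 and 1 counts and cultured Lum had 1, 4 and 1. Whether fibroblast markers in purified cells came from the tumor cells or from host cells was not tested. The part of these markers in the result was not tested.

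**Figure D2:**
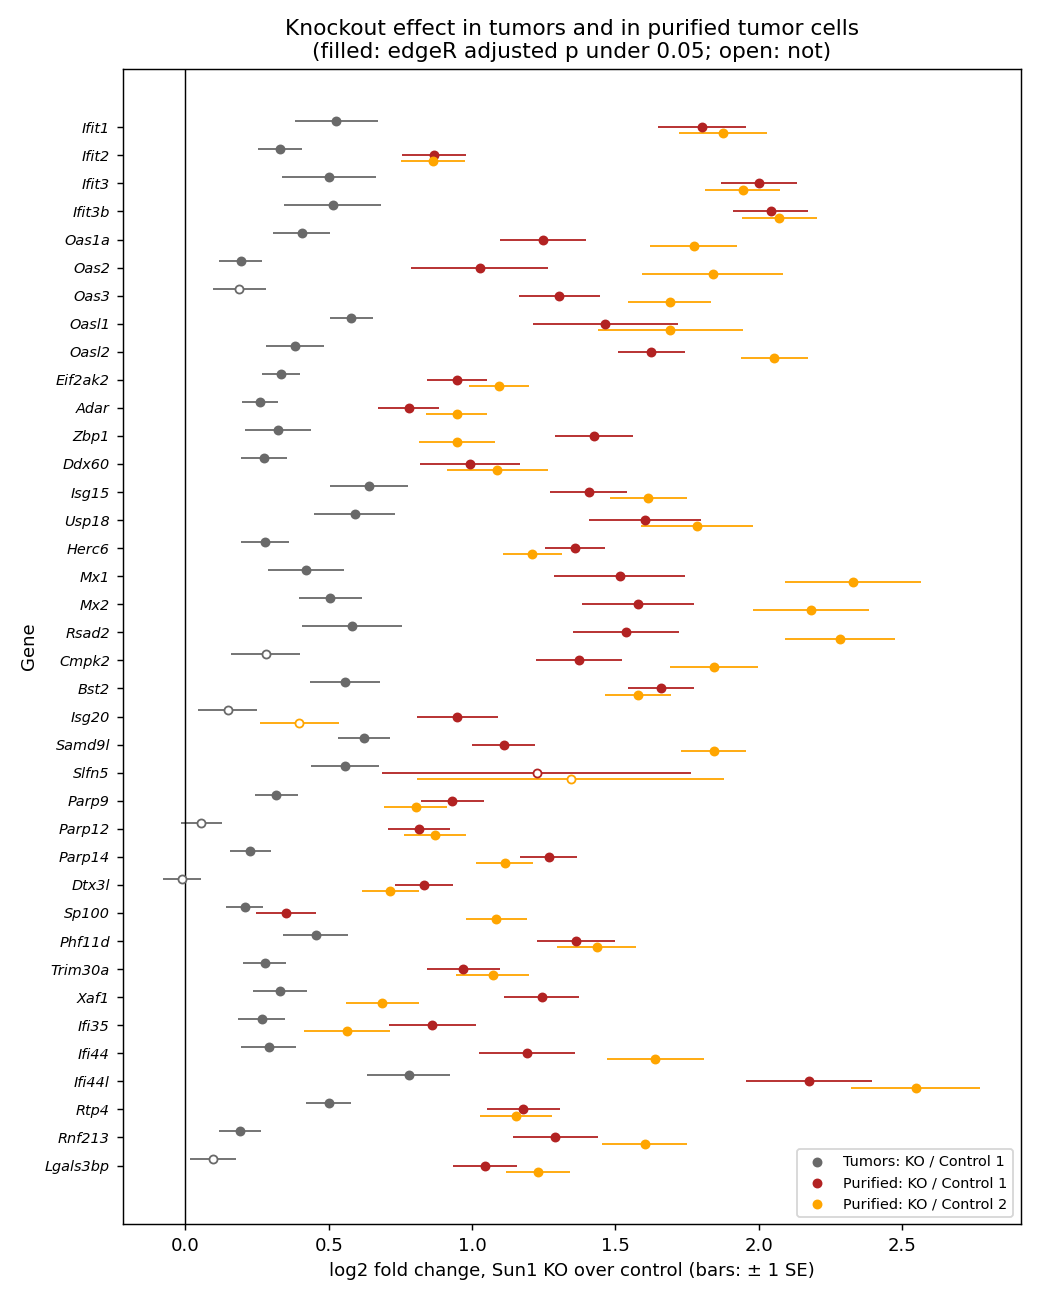
Points are log2 fold changes of the 38 members, knockout over control, with bars of 1 SE, in tumors (grey) and in purified cells against control line 1 (red) and control line 2 (orange). Filled points passed the test, and the tumor points lie left of the purified points in every row.

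Whole knockout tumors also carried more of most members than tumors of control line 1, by smaller amounts. Of 38 members, 32 were higher and 0 lower, with 18.1% of 13752 genes called higher. The median log2 fold change was 0.33 (all genes 0.01) with an SD of 0.18 over the members, and no member was past 2-fold. In bulk tissue, more cells of a type and more RNA per cell cannot be told apart. The values ran between -0.01 for Dtx3l and 0.78 for Ifi44l. The 6 members that did not pass were Cmpk2 (0.28 ± 0.12), Oas3 (0.19 ± 0.09), Isg20 (0.15 ± 0.10), Lgals3bp (0.10 ± 0.08), Parp12 (0.05 ± 0.07) and Dtx3l (-0.01 ± 0.07).

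In 4 members every knockout tumor lay above every control tumor, which was so for 3.12% of the genes tested. Oasl1 had 59.0 to 88.7 CPM (median 75.9) in knockout tumors and 45.3 to 57.4 CPM (median 49.3) in control tumors, a change of 0.58 ± 0.08 (adjusted p = 9.07e-06). Samd9l had 264 to 483 CPM (median 353) in knockout tumors and 199 to 254 CPM (median 234) in control tumors (0.62 ± 0.09, adjusted p = 4.22e-05). Rtp4 had 114 to 156 CPM (median 136) in knockout tumors and 75.6 to 112 CPM (median 97.0) in control tumors (0.50 ± 0.08, adjusted p = 8.92e-05). Mx2 was the lowest of these, with 18.7 to 33.5 CPM (median 23.0) in knockout tumors and 13.8 to 18.5 CPM (median 17.0) in control tumors (0.50 ± 0.11, adjusted p = 0.00142).

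In the other 34 members the groups overlapped. Ifi44l, with the largest difference, had 37.4 to 72.9 CPM (median 42.4) in knockout tumors and 21.4 to 38 CPM (median 27.4) in control tumors (0.78 ± 0.14, adjusted p = 0.000669), with 1 control tumor inside the knockout range. Isg15 had 117 to 208 CPM (median 129) in knockout tumors and 66.8 to 119 CPM (median 93.4) in control tumors (0.64 ± 0.14, adjusted p = 0.00186). Bst2 had 727 to 1347 CPM (median 816) in knockout tumors and 481 to 742 CPM (median 605) in control tumors (0.56 ± 0.12, adjusted p = 0.00214). For Isg15 and Bst2 the top knockout tumor stood far above the other 6. Usp18 rose by 0.59 ± 0.14, Rsad2 by 0.58 ± 0.17 and Ifit1 by 0.53 ± 0.15. Ifit3 had 113 to 218 CPM (median 131) in knockout tumors and 69 to 128 CPM (median 102) in control tumors (0.50 ± 0.16, adjusted p = 0.0257), and the groups overlapped.

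Smaller changes passed among sensors and regulators. Eif2ak2 had 96.5 to 139 CPM (median 113) in knockout tumors and 80.3 to 98.4 CPM (median 93.1) in control tumors (0.33 ± 0.07, adjusted p = 0.00075). Phf11d rose by 0.45 ± 0.11, Parp9 by 0.32 ± 0.07 and Adar by 0.26 ± 0.06. Rnf213 (0.19 ± 0.07, adjusted p = 0.0434) and Oas2 (0.19 ± 0.07, adjusted p = 0.0474) passed narrowly, and the calls of both, of Zbp1 and of Ifit3b were lost when single libraries were left out. Of single libraries left out, only knockout tumor replicate 6 cost the Ifit3b call (edgeR quasi-likelihood test, adjusted p = 0.0551). The calls of Ifit3 and Ifit3b were also lost with no filter on low counts (same test, adjusted p = 0.0581 and 0.0595). Both were lost again with the leukocyte gene Ptprc as a covariate (same test, adjusted p = 0.0999 and 0.0968).

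Some tumors were high or low in most members. Knockout tumor replicate 6 was the highest of the 7 knockout tumors in 28 of 38 members, and replicate 1 was the lowest in 31. Control tumor replicate 2 was the highest of the 8 control tumors in 19 members. Leukocyte markers moved with the genotype in tumors, with all 5 called higher and a sum of 480 to 750 CPM in knockout tumors and 256 to 487 CPM in control tumors. Beside this and the other marker counts of this paragraph, 18.1% of all genes tested were called higher in knockout tumors. Among knockout tumors, replicate 6 had the lowest leukocyte sum, 480 CPM, and replicate 1 had 668 CPM. Replicate 6 also had the highest Ifnb1 count, 20. Markers of T and natural killer cells (Cd3e, Cd3g, Cd8a, Cd4 and Ncr1) were higher in 4 of 5, with a sum of 69.7 to 128 CPM in knockout tumors and 29.5 to 64.7 CPM in control tumors. Of 5 macrophage and monocyte markers 2 were called higher (C1qa and Ly6c2) and all 5 were positive, with a median log2 fold change of 0.64 and a sum of 425 to 1049 CPM in knockout tumors and 269.5 to 776 CPM in control tumors. Of 4 plasmacytoid dendritic cell markers 2 were called higher (Cox6a2 and the member Bst2) and all 4 were positive, with a median of 0.81. Without Bst2 their sum was 3.16 to 10.7 CPM in knockout tumors and 1.79 to 8.28 CPM in control tumors. That sum was 2.46 CPM in the cultured knockout, 0.823 CPM in cultured control line 1 and 1.03 CPM in cultured control line 2. Of 3 endothelial markers 1 was called higher and all 3 were positive. Of 3 fibroblast markers only Dpt was called higher and only Dpt was positive, with a median log2 fold change of -0.13 and a lowest of -0.36. With the leukocyte gene Ptprc as a covariate, 15 members were higher and 0 lower, with 4.25% of genes called higher, and the median of the members was 0.41.

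**Figure D3:**
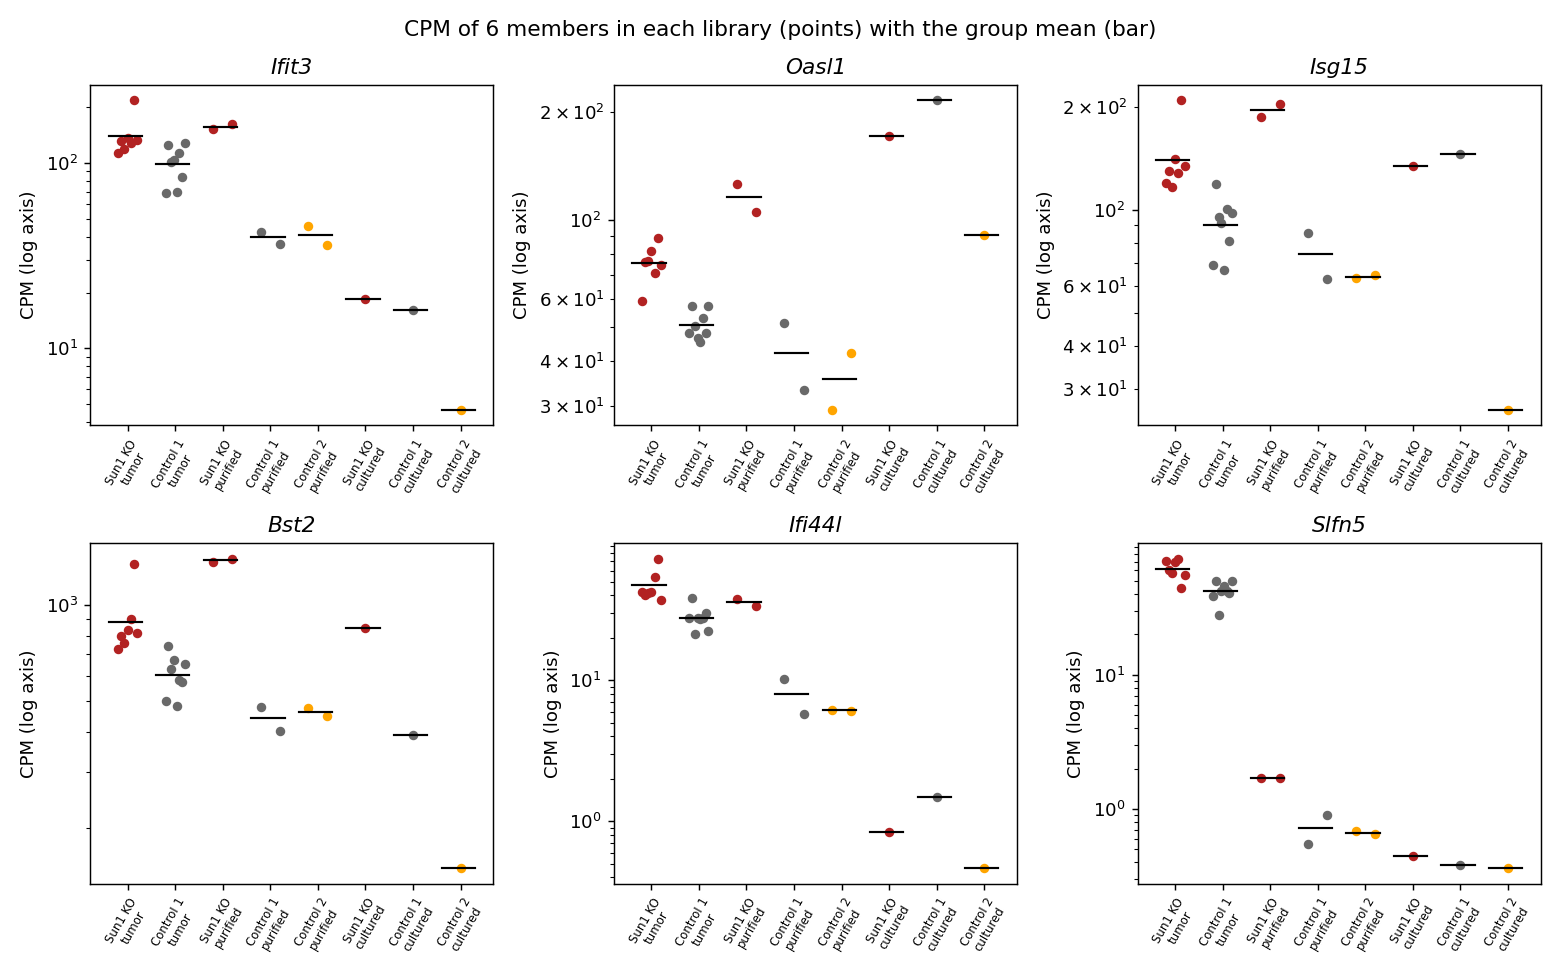
CPM of Ifit3, Oasl1, Isg15, Bst2, Ifi44l and Slfn5 on log axes, with 1 point per library and a bar at the mean of each of the 8 groups, which run as tumors, purified cells and cultured cells. For Ifit3, Isg15 and Bst2 a single knockout tumor stands above the rest, at 218, 208 and 1347 CPM, and for Slfn5 the tumors stand far above all cells.

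The knockout effect was smaller in tumors than in purified cells for every member, measured against control line 1 in both settings. The difference of the log2 fold changes was negative in 38 of 38 members and passed in 33, with 5.27% of 15033 genes called lower, and its median was -0.90 (all genes 0.01). Ifit3b (-1.52 ± 0.36), Ifit3 (-1.49 ± 0.35) and Ifi44l (-1.39 ± 0.36) differed most. Isg15 (-0.76 ± 0.30), Rsad2 (-0.95 ± 0.39), Samd9l (-0.48 ± 0.19), Slfn5 (-0.65 ± 0.49) and Sp100 (-0.14 ± 0.14) did not pass. The count rested on single purified libraries. It was 12 without replicate 2 of purified control line 1, 15 without replicate 2 and 20 without replicate 1 of the purified knockout.

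In tumors against purified cells, the median of the members had opposite signs in the knockout line and in control line 1. In the knockout line, tumors against purified cells had 3 higher members (Ifit2, Samd9l and Slfn5) and 21 lower, with 31.6% of 15033 genes called higher and 25.7% lower, and the median was -0.44. The Samd9l call of this line was lost in 14 of 19 fits with 1 library left out. It was also lost with no filter on low counts and with a replicate block (edgeR quasi-likelihood test, adjusted p = 0.0863 and 0.164). In control line 1, tumors against purified cells had 26 higher members and 1 lower, Parp12, with 29.6% of genes called higher and 23.9% lower, and the median was 0.48. Ifit2, Samd9l and Slfn5 were higher and Parp12 was lower in both lines. The higher count was 17 without replicate 2 of purified control line 1. Oasl2 had 259 to 463 CPM in knockout tumors against 574 and 656 CPM in purified knockout cells, and 224 to 344 CPM in control tumors against 207 and 194 CPM in purified control line 1. Slfn5, a Schlafen family member, averaged 61.5 CPM in knockout tumors and 42.1 CPM in control tumors, against 0.361 to 1.70 CPM in the 9 cell libraries. In tumors against purified cells Slfn5 was higher by 5.20 ± 0.28 in the knockout line and by 5.85 ± 0.32 in control line 1. Leukocyte sums were at least 256 CPM in tumors and at most 7.57 CPM in purified cells, and their part in the Slfn5 level was not tested.

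In culture the order of the lines was different. With 1 library per line no pair of lines can be tested, so ratios compare these libraries and cover no replicate error. Knockout over control line 1 had a median log2 ratio of 0.15 over 37 members with enough counts (SD 0.34), and 1 of them, Bst2, was at least 2-fold higher, with 4.61% of genes that far. Bst2 had 844 CPM in the cultured knockout, against 392 CPM in control line 1 and 149 CPM in control line 2. Ratios against control line 1 ran between -0.76 for Ifi44l and 1.10 for Bst2, and 28 of 37 were positive. Knockout over control line 2 had a median of 1.75 (SD 0.76), with 31 of 37 members at least 2-fold higher and 4.85% of genes that far. Control line 2 over control line 1 had a median of -1.56, with 33 of 37 members at least 2-fold lower and 4.18% of genes that far.

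Single members show how far the control lines stood apart in culture. Isg15 had 134 CPM in the cultured knockout, 145 CPM in control line 1 and 26.1 CPM in control line 2. Zbp1 had 32.1 CPM in the cultured knockout, 31.6 CPM in control line 1 and 5.68 CPM in control line 2. Ifit2 was the exception, with 44.7 CPM in the knockout, 36.4 CPM in control line 1 and 38.5 CPM in control line 2. A fit with both control lines as 1 arm leaves 1 residual degree of freedom. It called 0 of 12175 genes (0%), and 0 members had an unadjusted p under 0.05. DESeq2 called 0 members as well.

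Purified cells against cultured cells of the same line were compared in 2 ways. A fit with line as a covariate gave 19 higher members and 1 lower, Oasl1 (-1.47 ± 0.35, adjusted p = 0.0172), with 41.9% of genes called in either direction and a median of 0.84. The count was 10 without the cultured knockout library and 32 without the cultured library of control line 1. A fit with a change of its own for each line, added after the data were seen, gave values by line. Culture has 1 library per line, so the spread in this fit comes from the purified pairs alone, and its errors and calls assume that cultured libraries vary as much as those. In the knockout line 31 members were higher and 0 lower in purified than in cultured cells (median 0.92), with 10.9% of genes called higher. In control line 2, 31 were higher and 1 lower (median 1.63), with 13.3% of genes called higher and 12.4% lower. In control line 1, 11 were higher and 5 lower (median 0.09), with 13.2% of genes called higher and 11.6% lower.

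Each of these changes rests on 1 cultured library. Ifi44l had 37.9 and 33.4 CPM in purified knockout cells, against 0.838 CPM in the cultured knockout (5.42 ± 0.41). It had 10.2 and 5.77 CPM in purified control line 1, against 1.48 CPM in its culture (2.42 ± 0.38). Mx1 had 27.1 and 34.0 CPM in purified knockout cells, against 1.04 CPM in the cultured knockout. Isg15 went in opposite directions, with 187 and 204 CPM in purified knockout cells against 134 CPM in culture, and 85.7 and 62.8 CPM in purified control line 1 against 145 CPM in culture. Its change was 0.56 ± 0.16 in the knockout line and -0.97 ± 0.16 in control line 1. Oasl1 was lower in purified than in cultured cells of all 3 lines by its mean, with 126 and 105 CPM against 171 CPM in the knockout line, and 51.2 and 33.3 CPM against 216 CPM in control line 1.

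The change in the knockout line minus that in control line 1 was positive in 38 of 38 members, with a median of 1.00, and passed in 12, with 0.394% of genes called higher. The 12 were Ifit1, Ifit3, Ifit3b, Oasl2, Zbp1, Isg15, Herc6, Cmpk2, Samd9l, Parp14, Phf11d and Ifi44l. Against control line 2 the difference was positive in 11 of 38 members, with a median of -0.47, and was called higher in 0 and lower in 4 members (Zbp1, Parp9, Dtx3l and Rtp4), with 0.341% of genes called in either direction.

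**Figure D4:**
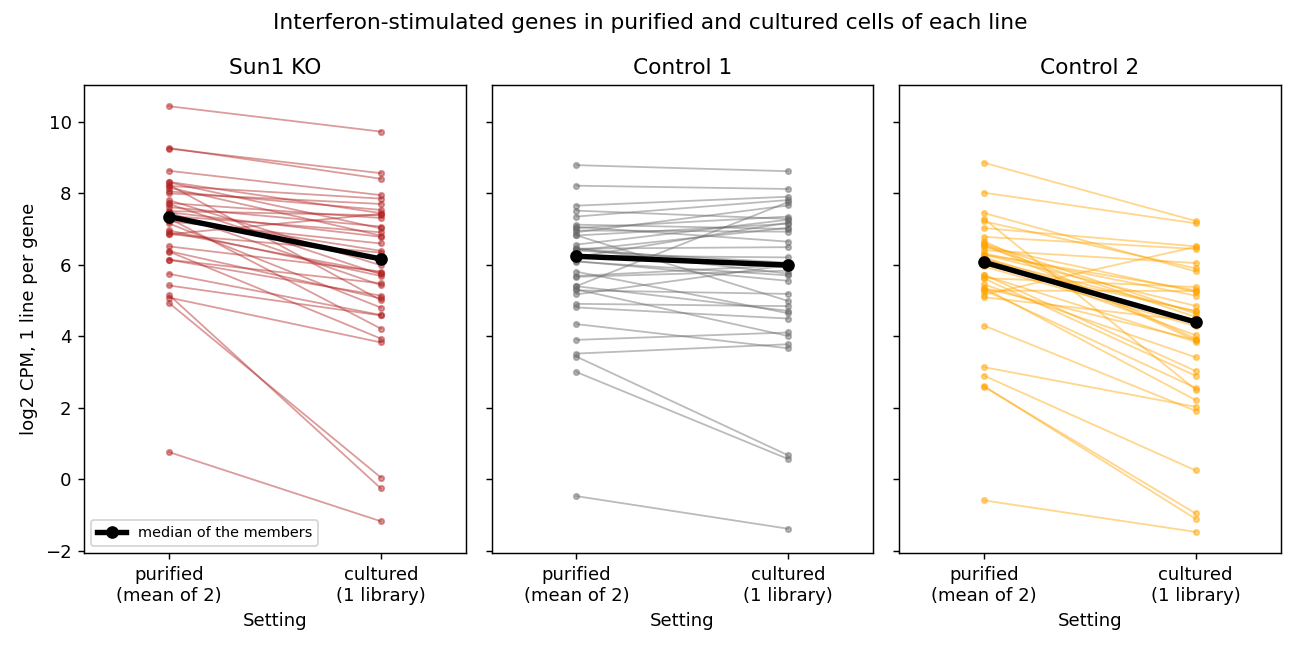
Each thin line joins the log2 of the mean CPM of 1 member in purified cells (left, 2 libraries) to that in culture (right, 1 library). Each panel holds 1 cell line, and the thick line joins the medians. The median is higher in purified cells in the knockout and control line 2 panels and nearly level in control line 1.

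Other genes known to respond to type I interferon gave another list of 24. In purified cells 20 were higher in the knockout against control line 1 and 21 against control line 2, and 0 were lower in either, beside 8.32% and 11% of all genes called higher. In tumors 13 were higher, beside 18.1% of all genes, and 1, Apol9b, was lower. Ifih1, the RNA sensor MDA5, had 244 and 228 CPM in purified knockout cells, against 122 and 101 CPM in control line 1 and 90.1 and 82.4 CPM in control line 2. In tumors Ifih1 had 92.2 to 146 CPM in the knockout and 76.9 to 101 CPM in the control (0.38 ± 0.08, adjusted p = 0.00177). Nmi, a partner of Ifi35, rose by 0.55 ± 0.09 in tumors and by 0.56 ± 0.12 in purified cells against control line 1. Tor3a, an ATPase of the endoplasmic reticulum, rose by 0.33 ± 0.06 in tumors and Ifi204, a DNA sensor of the mouse, by 0.44 ± 0.09.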

How the data were processed

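Messenger RNA was enriched from total RNA and sequenced with paired ends on an Illumina instrument, per the labels' protocols. Per the submitters' processing notes, FastQC, STAR, RSEM and DESeq2 were used on the mm10 genome, and versions are not given in the sources used here. Per the file headers, the authors deposited 1 RSEM file a library, holding for every gene its expected count (estimated reads, unscaled) and its TPM. The authors' DESeq2 tables were not used. The values of 1 gene of the signalling list are not reported here, though it stays in that list's counts. Expected counts were rounded, and TPM values served only to rank levels between genes.

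The members and all gene lists were chosen with earlier results of these data known. All 24 libraries were grouped by their titles, and 0 columns were left unmapped. Tests were made with edgeR 4.0.16 (R 4.3.3): TMM scaling, a filter by filterByExpr with its minimum count at 10 and minimum total at 15, robust two-sided quasi-likelihood F tests and Benjamini-Hochberg adjustment over all genes tested at 0.05. A standard error is the absolute log2 fold change divided by the root of F. Purified cells were fitted with 3 group means and tumors on their own. The effect in tumors minus that in purified cells was tested as an interaction. Printed CPM values are counts scaled over all 24 libraries. Every member is named, with values by library for those of each role with the smallest p in tumors or the highest CPM. Alternatives were DESeq2 1.42.0, relative log expression scaling, no filter on low counts, each library left out, a replicate block, both control lines as 1 arm and Ptprc as a covariate. The steps were tested on simulated data. Replicates differed by more than sampling noise (lowest chi-square per gene within a group 7.38, near 1 for 1 library counted again). Promoter sequences, gene positions and biotypes come from RefSeq on GRCm38.p6, and transcript identity from GENCODE M21.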

Additional observations from a re-analysis of the deposited data

Results flagged for a closer look

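In tumors, 76 sets of values (38 members in each genotype) were checked by Dixon's criterion for a library that stands apart from its group. Such a library was found in 9 sets, and chance gives about 1 in 20 for a single set. The sets of a genotype share the same tumors and are not independent, so the 9 cannot be set against that rate. Knockout tumor replicate 6 was far above the other knockout tumors in 5 members, with 218 CPM for Ifit3, 208 CPM for Isg15, 1347 CPM for Bst2, 73.4 CPM for Ifi35 and 328 CPM for Ifi44. Knockout tumor replicate 1 was far below the others for Rnf213, at 282 CPM. Among control tumors, replicate 7 was low for Eif2ak2, at 80.3 CPM, replicate 3 was low for Slfn5, at 27.8 CPM, and replicate 2 was high for Sp100, at 133 CPM. No cause was tested.

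The knockout effect differed between tumors and purified cells in 33 members by the interaction in edgeR, always smaller in tumors. The differences of the log2 fold changes, tumors minus purified cells, were -1.27 for Ifit1, -0.53 for Ifit2, -1.49 for Ifit3 and -1.52 for Ifit3b. In the OAS family they were -0.84 for Oas1a, -0.83 for Oas2, -1.11 for Oas3, -0.88 for Oasl1 and -1.24 for Oasl2. Sensors had -0.61 for Eif2ak2, -0.51 for Adar, -1.10 for Zbp1 and -0.71 for Ddx60, and the ISG15 system had -1.01 for Usp18 and -1.08 for Herc6. The Usp18 call was lost in 15 of 19 fits with 1 library left out. It was also lost with no filter on low counts and with a replicate block (edgeR quasi-likelihood test, adjusted p = 0.0902 and 0.0602). Among effectors the values were -1.09 for Mx1, -1.07 for Mx2, -1.09 for Cmpk2, -1.10 for Bst2 and -0.80 for Isg20. The PARP group had -0.61 for Parp9, -0.75 for Parp12, -1.03 for Parp14 and -0.84 for Dtx3l. Nuclear and regulatory members had -0.90 for Phf11d, -0.69 for Trim30a, -0.91 for Xaf1 and -0.59 for Ifi35. The remaining members had -0.89 for Ifi44, -1.39 for Ifi44l, -0.67 for Rtp4, -1.09 for Rnf213 and -0.94 for Lgals3bp.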

How the results depend on the processing

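Under relative log expression scaling, DESeq2, no filter and single libraries left out, the 32 higher members of tumors became 27 to 34 and those of purified cells 34 to 37. Leaving out single libraries gave 28 to 34 higher members in tumors and 35 to 36 and 34 to 36 in purified cells against control lines 1 and 2. In tumors, Ptprc as a covariate gave 15 higher members. In purified cells, a fit with both control lines as 1 arm lost the calls of Oas2, Isg20 and Sp100 against control line 1 (edgeR quasi-likelihood test, adjusted p = 0.0601, 0.110 and 0.156). The same replicate numbers did not pair the tumors (correlations of -0.08 to 0.14 over 7 pairs, 1 best with its own number), and the replicate block gave 31 higher members in tumors, 37 and 36 in purified cells, and 32 lower in the interaction. Between the control lines, no filter gave 12 lower members in place of 6, and leaving out libraries gave 2 to 10 lower and 0 to 4 higher. For purified against cultured cells, no filter gave 31 higher members in place of 19, leaving out libraries gave 10 to 32 higher and 0 to 1 lower, and the lines alone gave 31 higher and 0 lower (knockout), 11 higher and 5 lower (control line 1) and 31 higher (control line 2). There, Ifit1 (-0.82), Oas3 (-0.75) and Isg15 (-0.97) were lower within control line 1. The interaction gave 12 to 35 lower members. In control line 1, tumors against purified cells gave 17 to 26 higher and 0 to 2 lower. The cause of these moves was not tested. For culture no library could be left out with a test, since no residual degree of freedom remains.

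The purified groups have 2 libraries each, culture has 1 per line, and 1 knockout line was measured. At low counts, as for Slfn5 in cells and Ifnb1, depth limits what can be seen. Tissue makeup cannot be told apart from expression per cell in tumors.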
